A study of Homo sapiens with 51 samples.

Results

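SOX17, FOXA1, FOXA2, FOXA3, HNF4A, HHEX, AFP and APOA1 are 8 genes of endoderm and of its liver and yolk sac descendants. Chromatin accessibility near them was followed in H1 human embryonic stem cells left undifferentiated, given BMP4 for 1 to 5 days, or put through a SMAD-inhibitor neural induction. A 201 bp accessible region was assigned to a gene when the nearest end of any protein-coding or lncRNA gene, among 38151 such genes of the RefSeq annotation on GRCh38, belonged to it and lay within 50 kb of the region's middle. This gave 44 of 100584 regions in undifferentiated cells, 64 of 142087 under BMP4 and 60 of 162317 under the inhibitor. SOX17 had 3, 5 and 6 regions in the 3 conditions in that order, FOXA1 15, 17 and 16, FOXA2 9, 12 and 10, FOXA3 3, 6 and 4, HHEX 11, 16 and 14, and APOA1 3, 6 and 6. AFP had 0, 2 and 4 regions, and HNF4A had 0 in each condition. The farthest assigned regions lay 5555 bp from the end of FOXA1 in undifferentiated cells (6.84 CPM, counts scaled to a common library total), 32103 bp from HHEX under BMP4 (2.46 CPM) and 32109 bp from HHEX under the inhibitor (2.74 CPM). In each condition 1 more region was nearest to these genes but beyond the limit, at 61630, 61628 and 61656 bp from HHEX, with 4.93, 3.51 and 4.29 CPM.

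The libraries came from 3 genotypes of H1, an established embryonic stem cell line: KO (17 libraries), ΔATG (16 libraries, written DATG in the sample names) and unedited WT (18 libraries). Which gene was edited is not in the labels, nor is the number of clones behind each line. Undifferentiated cells (day 0) gave 6 libraries, BMP4 on days 1, 2, 3, 4 and 5 gave 30, labelled as mesoderm, and the inhibitor, called SMADi below, gave 15 on days 1, 4 and 5, labelled as neuroectoderm. Each of the 27 groups of genotype, treatment and day had 2 libraries, a and b, apart from 3 SMADi groups with 1 each (KO on day 4, and DATG on days 1 and 5). No library is labelled as endoderm.

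As background, SOX17 is an SRY-box transcription factor needed for definitive endoderm, and the FOXA proteins are pioneer factors that can bind their sites in closed chromatin and prepare foregut and liver genes for expression. HNF4A is a nuclear receptor at the head of the hepatocyte programme and HHEX is a homeobox repressor of anterior endoderm, liver bud and endothelial progenitors. AFP, a fetal relative of serum albumin, is secreted by yolk sac and fetal liver, and APOA1 is the main protein of high-density lipoprotein. Bulk ATAC-seq counts transposase cuts over all cells of a culture, so fewer cells with an open region and less opening per cell cannot be told apart.

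The promoters shown here are those of AFP, which no region overlapped, and of HHEX, FOXA1 and FOXA3, each overlapped by a region in every condition. They run from 250 bases before to 50 after the annotated start (RefSeq, GRCh38.p14), 5′ to 3′ on the gene's strand. Capitals mark the motifs searched for on both strands: TATAAA, the HNF1 half-site GTTAAT, the FOXA core TGTTTNC, the GATA site AGATAA and the GC box GGGCGG, which occur in 11.5%, 6.88%, 18.0%, 10.3% and 45.0% of 35116 RefSeq promoters of the same length.
AFP, chr4:73435971-73436270, plus strand: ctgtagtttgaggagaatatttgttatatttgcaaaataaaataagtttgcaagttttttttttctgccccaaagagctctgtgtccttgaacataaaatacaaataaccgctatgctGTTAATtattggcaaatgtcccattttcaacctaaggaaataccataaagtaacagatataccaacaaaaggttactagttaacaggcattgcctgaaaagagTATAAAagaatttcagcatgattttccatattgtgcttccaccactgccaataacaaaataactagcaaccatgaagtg
HHEX, chr10:92689705-92690004, plus strand: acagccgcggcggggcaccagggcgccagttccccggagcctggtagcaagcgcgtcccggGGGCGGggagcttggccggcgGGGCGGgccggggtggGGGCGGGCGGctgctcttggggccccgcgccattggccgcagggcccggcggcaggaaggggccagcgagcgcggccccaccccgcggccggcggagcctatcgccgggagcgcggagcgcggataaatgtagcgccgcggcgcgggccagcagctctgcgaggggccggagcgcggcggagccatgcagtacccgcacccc
FOXA1, chr14:37595200-37595499, minus strand: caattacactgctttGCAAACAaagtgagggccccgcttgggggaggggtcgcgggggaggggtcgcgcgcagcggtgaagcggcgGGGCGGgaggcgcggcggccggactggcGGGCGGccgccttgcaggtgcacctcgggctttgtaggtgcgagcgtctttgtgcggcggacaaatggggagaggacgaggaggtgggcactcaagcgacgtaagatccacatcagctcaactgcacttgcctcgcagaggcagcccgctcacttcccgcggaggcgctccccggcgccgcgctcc
FOXA3, chr19:45864076-45864375, plus strand: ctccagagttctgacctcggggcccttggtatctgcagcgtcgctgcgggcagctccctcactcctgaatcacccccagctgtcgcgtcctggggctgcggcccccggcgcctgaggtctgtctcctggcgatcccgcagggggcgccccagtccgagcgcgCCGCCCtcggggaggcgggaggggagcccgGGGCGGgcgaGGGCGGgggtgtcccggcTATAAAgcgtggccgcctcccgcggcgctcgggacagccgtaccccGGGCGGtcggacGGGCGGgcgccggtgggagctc
The AFP promoter had 33% G and C and 1 CpG, against a median of 58.7% and 14 CpG over all promoters, and held TATAAA 29 bases before the start and 1 HNF1 half-site. No region overlapped it, and the nearest region's middle lay 84863 bp away in undifferentiated cells, 10281 bp under BMP4 and 14373 bp under SMADi. HHEX had 80.3% G and C, 44 CpG and 4 GC boxes, FOXA1 69.3%, 34 CpG, 2 GC boxes and 1 FOXA core, and FOXA3 76.3%, 37 CpG, 5 GC boxes and TATAAA 30 bases before the start. The 2 annotated HNF4A promoters, with 60% and 57.7% G and C, had no overlapping region either. A motif match is a description of letters and shows no binding.

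Total counts in regions were 4616521 to 7516259 in the undifferentiated libraries, 4019778 to 13850448 with BMP4 and 7086918 to 23252871 with SMADi. At 129 regions that separated KO from DATG, the KO-labelled library of SMADi day 1, replicate b (below, the library labelled KO day 1 replicate b), sat at 0.88 on a scale from the KO mean (0) to the DATG mean (1). The other KO libraries under SMADi sat at -0.35 to -0.14, DATG libraries at 0.69 to 1.09 and WT libraries at 0.28 to 0.55. Some KO values under SMADi are therefore also given without that library, where stated. All other KO values and counts of calls under SMADi include it. The 3 conditions have separate region sets, and tests were made only within a condition. Below, a gene is called higher or lower where edgeR's quasi-likelihood test of its summed region counts gave a Benjamini-Hochberg adjusted p under 0.05 over all genes of the table, and a region likewise over all regions. Fold changes are log2 values ± SE. The comparisons of KO and of DATG with WT share their WT libraries, and where the labels do not say that replicates are separate cultures, the p-values cover the spread among these libraries, which may be technical.

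In undifferentiated cells 6 of the 8 genes had regions assigned to them, and none of the 6 was called in KO or in DATG against WT, where 0.184% and 0.358% of all 27687 genes were called. Of their 44 regions none was called in either line by edgeR or DESeq2 (0.0855% and 0.206% of all regions by edgeR), with 4 and 0 at an unadjusted p under 0.05. Per region, SOX17 was the most accessible of the 6 at 13.6 ± 1.2 CPM (SD, n = 6 libraries), then FOXA3 at 10.2 ± 2.0 and APOA1 at 9.26 ± 1.34. FOXA1 (6.23 ± 0.39), FOXA2 (5.55 ± 0.48) and HHEX (5.21 ± 0.51) lay under the median region of the table, 6.89 CPM. The neighbours FOXA3 and APOA1 did not differ beyond their SD, nor did FOXA2 and HHEX. HNF4A is left out of this order by the rule of assignment alone, since a region inside it averaged 27.95 CPM. By strongest single region the order was another, with FOXA3 at 20.2 CPM, FOXA1 19.8, APOA1 17.5, SOX17 17.3, FOXA2 9.86 and HHEX 9.27. The gene sums of FOXA3 were 29.7 and 39.4 CPM in KO, 35.1 and 23.2 in DATG, and 25.03 and 30.4 in WT. Those of APOA1 were 25.02 and 24.3 CPM in KO, 31.9 and 23.2 in DATG, and 30.8 and 31.5 in WT. These were the only 2 genes with an unadjusted p under 0.05 in KO (log2 0.32 ± 0.13 and -0.33 ± 0.14, adjusted p 0.42 and 0.43). In FOXA3 the KO libraries overlapped WT, and in APOA1 both KO libraries lay under both WT libraries. In DATG 0 of 6 had an unadjusted p under 0.05, and DESeq2 called 0 of 6 in both lines.

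Under BMP4 the largest change over days in WT cells among the sums of the 7 genes with regions was a gain at AFP. Day 5 differed from day 1 in 5 of the 7 genes, while 47.6% of all 30251 genes were called. AFP and FOXA3 were higher on day 5, SOX17, FOXA2 and HHEX were lower, and FOXA1 and APOA1 were not called. The 7 genes had a median log2 change of -0.18, against -0.02 over all genes. Averaged over days, KO differed from WT in 3 of 7 genes (26.5% of all genes), with FOXA1 and SOX17 higher and AFP lower. DATG differed from WT in FOXA1 alone, 1 of 7 (13.0% of all genes), and KO differed from DATG in none of the 7 (2.65%), with 1 at an unadjusted p under 0.05 and 0 called by DESeq2. The change from day 1 to day 5 differed between KO and WT in 2 of 7, FOXA1 and FOXA2 (6.42% of all genes), and between DATG and WT in none (0.261%), with 1 at an unadjusted p under 0.05 and 0 called by DESeq2. Of the 64 regions, 10 were called between day 5 and day 1 in WT, 4 higher and 6 lower (34.9% of all regions), 9 in KO, 6 higher and 3 lower (21.5%), and 2 in DATG, both higher (9.32%).

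Under SMADi AFP and HHEX were lower and FOXA1 was higher in the mutant lines than in WT, and in WT itself SOX17 and FOXA2 lost accessibility over days. KO differed from WT in 3 of 7 genes, AFP and HHEX lower and FOXA1 higher, while 45.0% of all 31495 genes were called. DATG differed from WT in 3 of 7, again AFP and HHEX lower and FOXA1 higher (34.1% of all genes). KO differed from DATG in none of the 7 (0.102%), with 0 at an unadjusted p under 0.05 and 0 called by DESeq2. The KO side of this comparison includes the library labelled KO day 1 replicate b, which sat at 0.88 on the scale from KO to DATG. WT day 5 differed from day 1 in 2 of 7, SOX17 and FOXA2, both lower (43.9%). The change from day 1 to day 5 differed from WT's in AFP and FOXA1, 2 of 7, in KO (27.1% of all genes) and in DATG (21.4%). Of the 60 regions, 18 were called between day 5 and day 1 in WT, 4 higher and 14 lower (40.9% of all regions). KO differed in 15, 8 higher and 7 lower (39.5%), and DATG in 10, 4 higher and 6 lower (28.5%). The change over days differed from WT's at 9 regions in KO, 5 more positive and 4 more negative (18.9%), and at 3 in DATG, 2 and 1 (13.9%). The 3 of 7 genes called in each line, 42.9%, lie close to the 45.0% and 34.1% of all genes, so the count of calls does not set these genes apart.

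**Figure D1:**
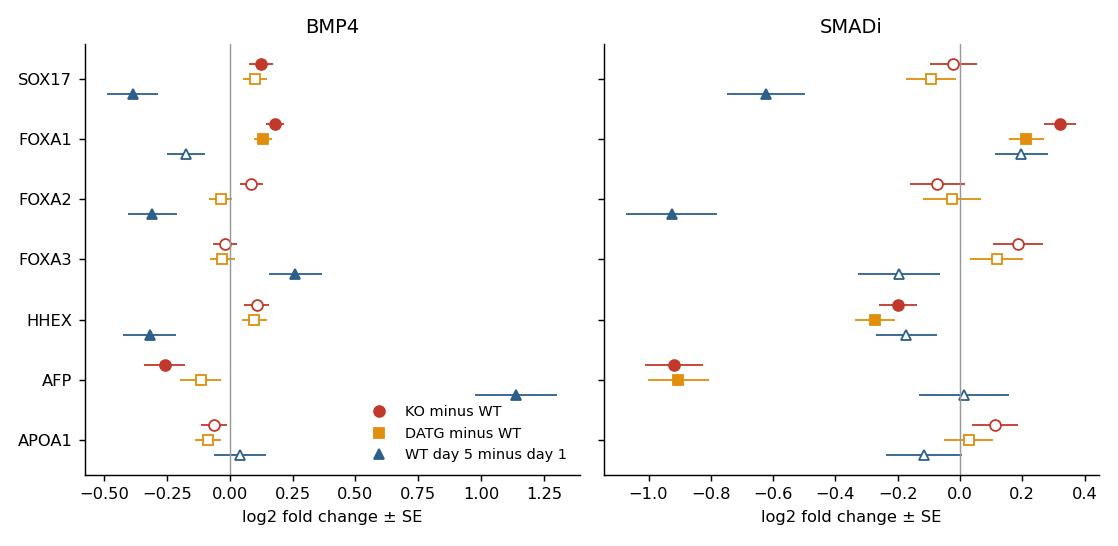
Log2 fold changes with SE (x axis) of the gene sums of the 7 genes with regions (y axis), for KO against WT, DATG against WT and WT day 5 against day 1, under BMP4 and SMADi; filled points are called and open points are not. AFP has the largest differences from WT under SMADi, -0.92 in KO and -0.90 in DATG, and the largest between days under BMP4, 1.14, while between days of SMADi FOXA2 has the largest, -0.93.

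FOXA1, the FOXA pioneer factor of foregut, prostate and breast epithelium, was the member with the most regions. Of its 16 regions under SMADi, 5 were called in KO and 3 in DATG, all higher than in WT. These are 31.2% and 18.8%, beside 39.5% and 28.5% of all regions. Under SMADi its gene sum was 75.0 and 69.6 CPM in KO, 60.2 in DATG, and 74.0 and 77.0 in WT on day 1. On day 4 it was 112 in KO, 115 and 109.7 in DATG, and 94.0 and 77.2 in WT. On day 5 it was 133 and 118 in KO, 121 in DATG, and 77.3 and 89.3 in WT. On days 4 and 5 every mutant library lay above every WT library, and on day 1 none lay above the higher WT library. The only DATG library of day 1 was the lowest of that day, and the DATG change over days rests on it. That library was also the lowest of day 1 at SOX17, FOXA2, FOXA3 and HHEX. Averaged over days the difference was 0.32 ± 0.05 in KO (adjusted p 8.8e-06) and 0.21 ± 0.06 in DATG (0.0036). The change from day 1 to day 5 exceeded WT's by 0.69 ± 0.12 in KO (0.00010) and by 0.87 ± 0.15 in DATG (0.00019). Without the library labelled KO day 1 replicate b, the KO values were 0.34 (4.2e-05) and 0.63 (0.0027).

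All 16 FOXA1 regions under SMADi had a more positive change over days than WT in KO and in DATG. Of these, 4 were called in KO and 2 in DATG, 25% and 12.5%, beside 18.9% and 13.9% of all regions. The change was also more positive at 39 of the 60 regions of the 7 genes in KO and at 45 in DATG. The 16 regions are read from the same libraries. The largest FOXA1 change in KO (1.66 ± 0.40, adjusted p 0.0032) lay beyond the end of the gene, at chr14:37579382-37579582, 15767 bp from the start and 10070 bp past the end. On day 5 it had 13.5 and 16.8 CPM in KO, 9.76 in DATG, and 5.36 and 5.19 in WT, and on day 1 it had 1.85 and 1.77 in KO, 1.78 in DATG, and 1.34 and 2.28 in WT. It opened in WT itself (day 5 against day 1, 1.65 ± 0.29, adjusted p 6.9e-06) and was higher in KO (0.93 ± 0.16, 1.7e-05) and DATG (0.52 ± 0.19, 0.032). The neighbouring region at chr14:37583978-37584178 had 19.2 and 20.0 CPM in KO, 17.6 in DATG, and 11.2 and 12.6 in WT on day 5, with 0.47 ± 0.11 in KO (0.00095) and 0.47 ± 0.12 in DATG (0.0033). The strongest FOXA1 region, at chr14:37591697-37591897 inside the gene and 3452 bp from its start, had 22.3 and 18.3 CPM in KO, 22.5 in DATG, and 13.3 and 15.4 in WT on day 5. It was higher in KO (0.41 ± 0.10, 0.0010) and DATG (0.37 ± 0.11, 0.0087). The region over the FOXA1 promoter, whose sequence is given above, was not called in any of the comparisons. When regions were linked within 1 kb of the gene's ends, which keeps 5 of the 16, the FOXA1 sum no longer differed detectably (KO -0.04 ± 0.11, adjusted p 0.84; DATG 0.02 ± 0.11, 0.95), nor did its change over days (KO 0.18 ± 0.24, 0.72; DATG 0.47 ± 0.29, 0.31).

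**Figure D2:**
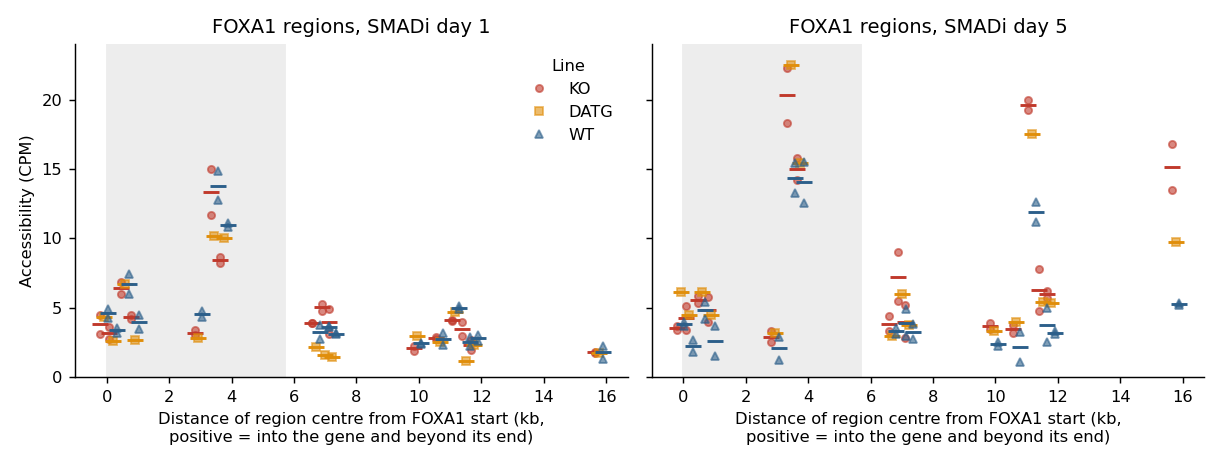
CPM (y axis) of the 16 FOXA1 regions under SMADi against distance from the FOXA1 start in kb (x axis), on day 1 and day 5; points are libraries of KO, DATG and WT, dashes are group means and the grey band is the gene. On day 5 every KO and DATG library lies above WT at the region farthest past the gene's end and at the strongest region inside it. At both of these, KO overlaps WT on day 1. At some other regions past the end, such as chr14:37588452-37588652, the lines overlap on day 5.

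Under BMP4 the FOXA1 sums ran from 78.4 to 95.9 CPM in KO (median 87.5), from 75.6 to 95.6 in DATG (median 85.7) and from 67.6 to 90.5 in WT (median 77.4), 10 libraries each. KO was higher by 0.18 ± 0.04 (adjusted p 4.9e-05) and DATG by 0.13 ± 0.04 (0.0063), differences smaller than the range within each line. On day 5 the values were 91.4 and 95.9 in KO, 78.5 and 75.6 in DATG, and 73.0 and 69.6 in WT. On day 1 they were 84.8 and 78.4 in KO, 77.0 and 83.8 in DATG, and 85.2 and 81.4 in WT, without separation. The change over days was 0.40 ± 0.11 more positive in KO than in WT (0.015), and this call was lost without KO day 1 replicate b (0.35, adjusted p 0.1004), WT day 1 replicate a (0.38, 0.066) or WT day 5 replicate b (0.37, 0.1012) and in DESeq2 (0.095). The WT sum itself was not called between day 5 and day 1 (-0.18 ± 0.08, 0.051), but was under total-count scaling (-0.23, 0.0084), with the replicate block (-0.18, 0.047) and with links within 1 kb (-0.38, 0.032) or to coding genes only (-0.19, 0.036). The strongest region, chr14:37591699-37591899, was higher in KO (0.24 ± 0.07, 0.010) and in DATG (0.22 ± 0.07, 0.045), calls that DESeq2 did not make (adjusted p 0.058 and 0.19) and, in DATG, that leaving out any of 16 libraries ended. With links within 1 kb neither line was called (KO 0.15 ± 0.07, adjusted p 0.14; DATG 0.07 ± 0.07, 0.67), nor was the KO change over days (0.24 ± 0.21, 0.64).

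**Figure D3:**
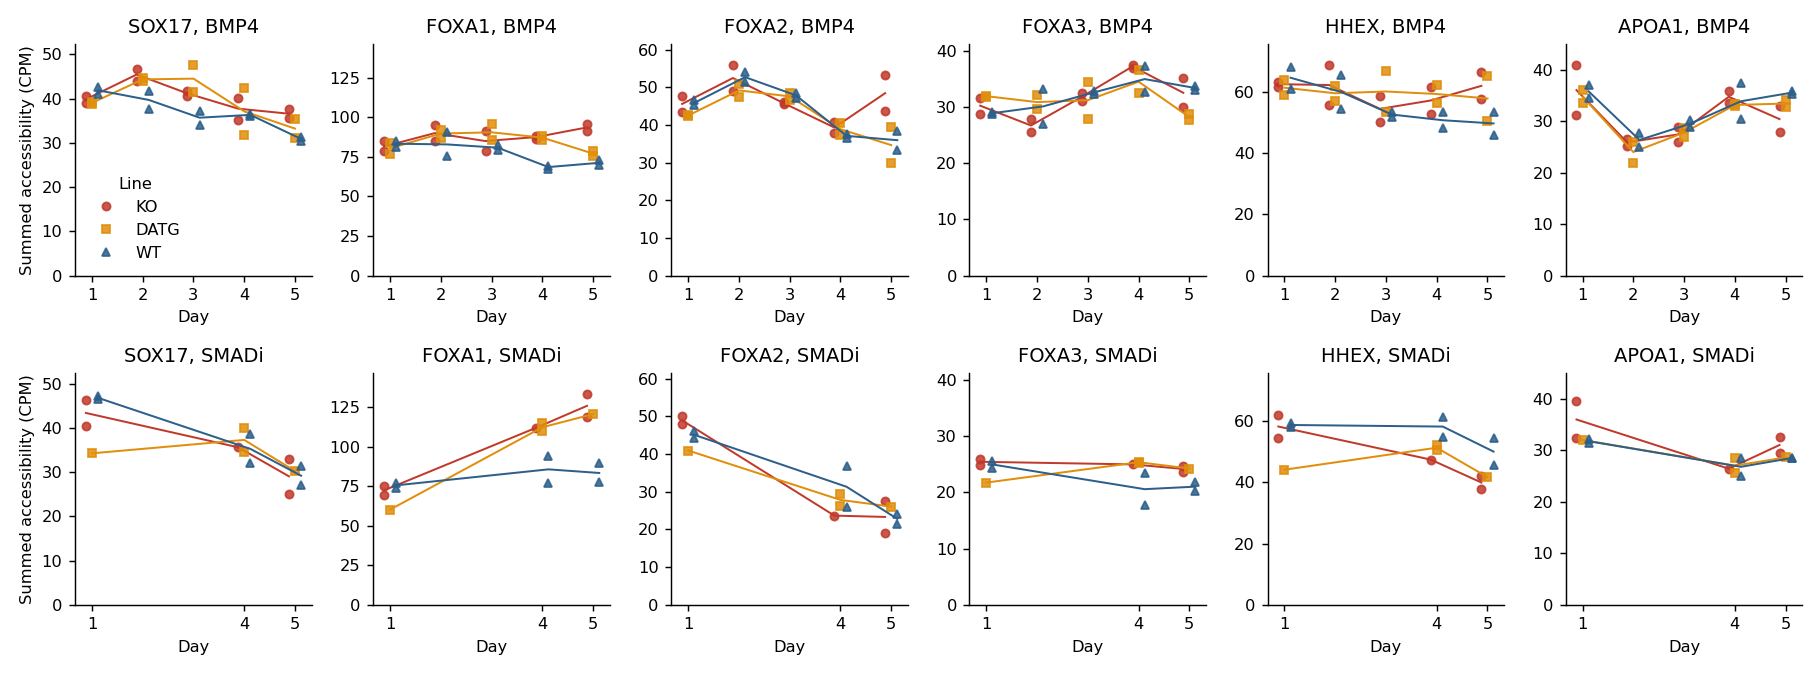
Gene-sum CPM (y axis) of SOX17, FOXA1, FOXA2, FOXA3, APOA1 and HHEX against day (x axis) under BMP4 and SMADi; points are libraries of KO, DATG and WT and lines join group means. FOXA1 under SMADi separates on days 4 and 5, with 109.7 to 133 CPM in the mutant libraries and 77.2 to 94.0 in WT, and under SMADi the means of FOXA2 and SOX17 are lower on day 5 than on day 1 in every line.

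SOX17 regions all lay inside the gene. In WT under SMADi the sum was 47.1 and 46.4 CPM on day 1, 38.5 and 32.0 on day 4, and 27.1 and 31.3 on day 5, without overlap between the days 1 and 5. The change was -0.62 ± 0.13 (adjusted p 0.00015), and 4 of 6 regions were lower, while 40.9% of all regions were called. The clearest was at chr8:54458074-54458274 (-0.95 ± 0.25, 0.0018). KO had 40.4 and 46.4 CPM on day 1, 35.6 on day 4, and 33.0 and 25.1 on day 5. DATG had 34.2 on day 1, 34.6 and 39.9 on day 4, and 30.2 on day 5. Neither line was called against WT, nor was its change over days, and 1 region, chr8:54459113-54459313, was lower in DATG (-0.51 ± 0.19, 0.035), a call that leaving out any of 4 libraries ended. Under BMP4 the WT sum was 31.3 and 30.5 CPM on day 5, against 41.1 and 42.6 on day 1 (-0.39 ± 0.10, 0.0013). KO was 0.12 ± 0.05 higher over days (0.040), with 35.2 to 46.8 CPM in KO (median 40.4) and 30.5 to 42.6 in WT (median 36.9). That KO call was lost when any of 15 libraries was left out and with links within 1 kb (0.11 ± 0.06, adjusted p 0.26) or to coding genes only (0.04 ± 0.04, 0.57).

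FOXA2, in mouse the earliest FOXA factor of the endoderm and also a factor of the neural floor plate, lost accessibility over days of SMADi in WT. Its sum was 21.4 and 24.2 CPM on day 5 in WT, against 44.2 and 46.0 on day 1 (-0.93 ± 0.15, adjusted p 4.7e-06). On day 5 it was 27.5 and 19.1 in KO and 26.1 in DATG, and on day 1 50 and 47.9 in KO and 41.0 in DATG. In each line every day 5 library lay under every day 1 library, and the change, as reported, did not pass the test of a difference from WT in either mutant line. In WT 6 of 10 regions were lower, while 40.9% of all regions were called. The strongest, chr20:22584718-22584918, had 4.23 and 2.46 CPM on day 5, against 9.75 and 10.1 on day 1 (-1.55 ± 0.27, 9.5e-06). That region was lower in KO than in WT over days (-0.61 ± 0.18, 0.0065), with 1.94 and 1.83 CPM in KO on day 5, and at -0.59 without the library labelled KO day 1 replicate b. The FOXA2 sum was not called in KO (-0.07) or DATG, but its values depended on the links. With links within 1 kb, which keep 2 regions, KO was lower (-0.51 ± 0.13, adjusted p 0.0039) and its change over days was more negative than WT's (-0.93 ± 0.28, 0.034, and -0.06 as reported). With coding-only links, which give 30 regions, the WT change over days was -0.33 ± 0.07 (0.00045), KO was at 0.03, and the DATG change over days was more positive than WT's (0.33 ± 0.12, 0.049). Under BMP4 WT fell by 0.31 ± 0.10 (0.0071), with 38.4 and 33.4 CPM on day 5 and 46.5 and 45.2 on day 1, a call lost without WT day 5 replicate b (-0.19, 0.23) or WT day 1 replicate a (-0.29, 0.056) and with links within 1 kb (-0.26, 0.14). The KO change over days was 0.43 ± 0.14 more positive (0.049), with 43.7 and 53.1 CPM on day 5 in KO, and this was lost when any of 20 libraries was left out, in DESeq2 (adjusted p 0.22) and with links within 1 kb (0.57, 0.14). With coding-only links it was 0.44 ± 0.09 (0.00099), and KO averaged over days was higher (0.15 ± 0.03, 1.6e-05), a difference not called as reported (0.09, adjusted p 0.15).

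FOXA3, the FOXA factor of liver and gut that in mouse comes on last in development, had its strongest region in every condition in the promoter whose sequence is given above. Under SMADi that region, chr19:45864113-45864313, was 113 bp before the start. On day 5 it had 13.1 and 14.2 CPM in KO, 12.99 in DATG, and 10.2 and 8.65 in WT, without overlap. On day 1 it had 11.3 and 12.3 in KO, 10.1 in DATG, and 12.0 and 11.3 in WT. Over days it was higher in KO (0.46 ± 0.11, adjusted p 0.00081, and 0.44 without the library labelled KO day 1 replicate b). In DATG it was higher by 0.32 ± 0.12 (0.039), a call lost under total-count scaling (0.26), in DESeq2 (adjusted p 0.070) and when any of 5 libraries was left out. The FOXA3 sum was not called in any SMADi comparison, with 24.7 and 23.7 CPM in KO, 24.3 in DATG, and 20.2 and 21.9 in WT on day 5. Under BMP4 the WT sum was 33.8 and 33.0 CPM on day 5, against 28.7 and 29.1 on day 1 (0.26 ± 0.10, 0.034), and the call was lost when any of these 4 libraries was left out, under total-count scaling (0.20), in DESeq2 (adjusted p 0.080) and with links within 1 kb (0.08 ± 0.13, 0.65).

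HHEX was lower in both mutant lines under SMADi. On day 5 its sum was 42.0 and 37.8 CPM in KO, 41.7 in DATG, and 45.7 and 54.3 in WT, and on day 4 47.4 in KO, 50.4 and 52.2 in DATG, and 61.4 and 54.9 in WT. On both days every mutant library lay under every WT library. On day 1 the values were 62.1 and 54.3 in KO, 44.1 in DATG, and 59.4 and 58.0 in WT. KO then overlapped WT, and the only DATG library lay under all the others. The difference was -0.20 ± 0.06 in KO (adjusted p 0.0085; -0.17, 0.046 without the library labelled KO day 1 replicate b) and -0.27 ± 0.07 in DATG (0.0014). The change over days was not called in either line. The difference was largest at 1 region inside the gene, chr10:92691284-92691484, 1429 bp from the start. In WT it had 3.31 and 2.49 CPM on day 1, 11.2 and 8.57 on day 4, and 3.53 and 5.39 on day 5. KO had 3.63 and 2.88 CPM on day 1, 2.39 on day 4, and 2.27 and 0.857 on day 5. DATG had 1.78 on day 1, 3.59 and 2.47 on day 4, and 1.85 on day 5. WT was highest on day 4, and no mutant library exceeded 3.63 CPM on any day. The difference was -1.10 ± 0.20 in KO (3.8e-05; -1.05 without the library labelled KO day 1 replicate b) and -1.19 ± 0.22 in DATG (6.5e-05).

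The corresponding BMP4 region, chr10:92691249-92691449, went the other way. It had 6.44 and 7.42 CPM in KO, 6.06 and 6.97 in DATG, and 4.37 and 3.17 in WT on day 5, without overlap. Over days KO was higher by 0.45 ± 0.14 (adjusted p 0.010) and DATG by 0.65 ± 0.13 (0.00024). The KO call was lost without KO day 3 replicate a (0.37) or KO day 4 replicate b (0.34) and in DESeq2 (adjusted p 0.065). The difference between treatments was not tested, since the region sets are separate. The HHEX sum under BMP4 was not called in either line, with 50.2 to 68.7 CPM in KO (median 60.1), 50.4 to 66.6 in DATG (median 60.4) and 46.0 to 68.1 in WT (median 53.4). In WT it was 46.0 and 53.3 CPM on day 5, against 68.1 and 61.0 on day 1 (-0.32 ± 0.11, 0.013). This was lost without WT day 1 replicate a (-0.23, adjusted p 0.16) or WT day 5 replicate a (-0.22, 0.16).

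HNF4A had no region by the rule used. Its body held 3 regions in undifferentiated cells, 4 with BMP4 and 6 with SMADi, but the nearest gene end was that of its antisense lncRNA HNF4A-AS1. The strongest, at chr20:44388600-44388800 under BMP4, averaged 20.8 CPM, and was lower in WT on day 5 than on day 1 (-0.46 ± 0.15, adjusted p 0.0095) and higher in KO than in WT (0.19 ± 0.07, 0.031). Another, at chr20:44370732-44370932, was lower in KO (-0.59 ± 0.12, 0.00012) and DATG (-0.47 ± 0.12, 0.0055) than in WT under BMP4. A region at chr20:44390408-44390608, present in the SMADi set alone and singled out after its values were seen, was near 0 on day 1 in every line. It had 0.337 and 0.369 CPM in KO, 0.170 in DATG, and 0.382 and 0.138 in WT. On day 4 it had 8.35 CPM in KO, 7.78 and 6.21 in DATG, and 4.07 and 3.24 in WT, and on day 5 9.06 and 10.1 in KO, 8.82 in DATG, and 7.20 and 7.25 in WT. WT day 5 exceeded day 1 by 4.83 ± 0.39 (1.1e-13), and on days 4 and 5 every mutant library lay above every WT library. Averaged over days the difference was 0.73 ± 0.27 in KO (0.028), and in DATG it was not called (0.26 ± 0.43, 0.69). With links to coding genes only, HNF4A had 4, 5 and 8 regions in the 3 conditions. Its sum was then lower in WT on day 5 than on day 1 of BMP4 (-0.29 ± 0.09, 0.0091) and higher under SMADi (0.30 ± 0.11, 0.024), where 1 of the WT day 5 libraries stood above the rest, with 57.3 and 44.85 CPM on day 5 and 43.95 and 42.1 on day 1. This sum was 40.04 CPM in DATG on day 5 and 48.8 on day 1, and its change over days was more negative than WT's (-0.56 ± 0.18, 0.031). The single region above rose in DATG between the same days, from 0.170 to 8.82 CPM.

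**Figure D4:**
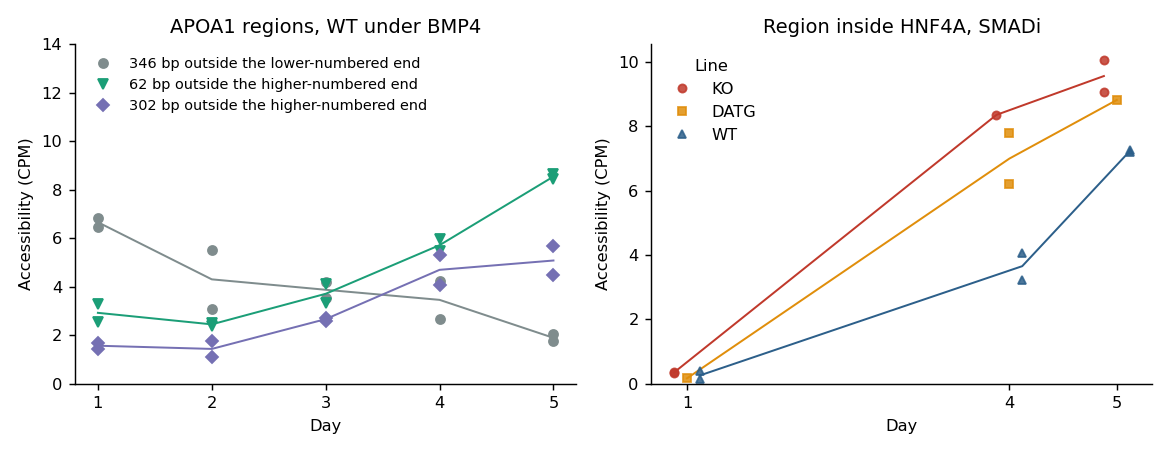
Left, CPM (y axis) by day of BMP4 (x axis) of the 3 APOA1 regions called between day 5 and day 1 in WT; right, CPM by day of SMADi of the region inside HNF4A in KO, DATG and WT; points are libraries and lines join means. The APOA1 regions diverge, with 8.45 and 8.63 CPM against 2.04 and 1.75 CPM on day 5 at opposite ends of the gene, and the HNF4A region is above WT in the mutant libraries on days 4 and 5.

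AFP gained accessibility in WT through BMP4 treatment. Its sum over 2 regions was 7.78 and 7.92 CPM on day 1, 9.30 and 13.03 on day 2, 10.5 and 12.2 on day 3, 11.1 and 10.0 on day 4, and 15.0 and 18.0 on day 5. All WT day 5 libraries lay above all earlier WT libraries, and day 5 exceeded day 1 by 1.14 ± 0.16 (adjusted p 4.1e-08). KO had 9.85 and 12.9 CPM on day 5 and 6.59 and 7.96 on day 1. DATG had 15.7 and 14.2 on day 5 and 7.75 and 6.94 on day 1. On day 5 KO lay under WT and DATG overlapped it. Over days KO was lower (-0.26 ± 0.08, 0.014), a call lost without WT day 2 replicate b (-0.21, 0.065) and in DESeq2 (0.065), and DATG was not called (-0.12 ± 0.08, 0.39). The change over days did not pass the test of a difference from WT in either line.

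This gain lay in 1 of the 2 BMP4 regions, chr4:73453245-73453445 inside the gene, 17124 bp from the start and 2829 bp from the end. It had 12.5 and 14.6 CPM on day 5 in WT, against 4.69 and 5.47 on day 1 (1.57 ± 0.19, adjusted p 8.9e-12). KO was lower over days (-0.45 ± 0.10, 0.00017), with 7.83 and 9.25 CPM in KO, 12.8 and 9.95 in DATG and 12.5 and 14.6 in WT on day 5. The other region, chr4:73446402-73446602, was not called in any comparison (day 5 against day 1 in WT 0.23 ± 0.33).

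Under SMADi AFP was lower in both mutant lines. Its sum over 4 regions was 14.3 and 15.4 CPM in KO, 14.4 in DATG, and 16.5 and 19.4 in WT on day 1. On day 4 it was 13.7 in KO, 13.9 and 13.8 in DATG, and 26.4 and 26.0 in WT. On day 5 it was 6.02 and 5.54 in KO, 6.06 in DATG, and 17.8 and 17.4 in WT. On each of the 3 days every mutant library lay under every WT library. The difference was -0.92 ± 0.09 in KO (adjusted p 2.1e-09) and -0.90 ± 0.10 in DATG (1.7e-08). WT day 5 did not differ detectably from WT day 1 (0.01 ± 0.14), while the change over days differed from WT's by -1.29 ± 0.22 in KO (6.4e-05) and by -1.20 ± 0.26 in DATG (0.0019). Without the library labelled KO day 1 replicate b the KO values were -0.94 (7.3e-08) and -1.24 (0.0011).

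The 4 AFP regions under SMADi lay between 14373 and 17097 bp from the start, inside the gene. All 4 were lower in DATG and 3 in KO, while 28.5% and 39.5% of all regions were called. At chr4:73451490-73451690 day 5 had 0.906 and 1.31 CPM in KO, 2.02 in DATG, and 5.79 and 5.59 in WT. Day 1 had 5.40 and 4.43 in KO, 4.67 in DATG, and 6.43 and 7.25 in WT. KO differed by -1.31 ± 0.17 (adjusted p 5.7e-08) and DATG by -0.95 ± 0.17 (3.5e-05). The strongest, chr4:73453218-73453418, overlaps the region that opened under BMP4, and was lower in KO (-0.73 ± 0.15, 0.00012) and in DATG (-0.84 ± 0.16, 7.8e-05).

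APOA1 as a sum was not called between day 5 and day 1 of BMP4 in WT (0.04 ± 0.10, adjusted p 0.77, with 35.8 and 35.3 CPM on day 5 and 37.1 and 34.5 on day 1), but 3 of its 6 regions were, in opposite directions. Of all regions 34.9% were called in that comparison. The region at chr11:116837584-116837784, 62 bp outside the gene's higher-numbered end, had 8.45 and 8.63 CPM on day 5, against 3.28 and 2.57 on day 1 (1.67 ± 0.24, 8.3e-09). Its neighbour at chr11:116837824-116838024 also opened (1.79 ± 0.31, 9.2e-07), with 5.68 and 4.48 CPM on day 5 and 1.69 and 1.45 on day 1. At the lower-numbered end chr11:116835305-116835505 closed, with 2.04 and 1.75 CPM on day 5, against 6.84 and 6.47 on day 1 (-1.68 ± 0.29, 8.6e-07). The first of these was lower in KO than in WT over days (-0.43 ± 0.14, 0.017), with 5.55 and 4.56 CPM in KO on day 5. That call was lost without KO day 1 replicate b (-0.34), without KO day 3 replicate a (-0.39) and in DESeq2 (adjusted p 0.084). Under SMADi the sum was not called in any comparison, with 32.7 and 29.4 CPM in KO, 28.6 in DATG and 28.5 and 28.5 in WT on day 5. The region at chr11:116837916-116838116 was higher in KO (0.69 ± 0.22, 0.012; 0.84 without the library labelled KO day 1 replicate b), a call lost without KO day 1 replicate a (0.47, adjusted p 0.11) or WT day 1 replicate b (0.54, 0.060).

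Other genes of endoderm and liver were read from lists chosen with earlier results of these data known. Under SMADi, of 13 hepatic and yolk sac secreted proteins with a region, of 18 listed, 2 were higher and 8 lower in KO (45.0% of all genes were called), and 2 higher and 5 lower in DATG (34.1%), with medians of -0.26 in each against 0.01 and 0.00 over all genes. GC, the gene of the vitamin D-binding protein, was lower in KO (-0.60 ± 0.10, adjusted p 1.1e-05) and in DATG (-0.63 ± 0.11, 2.2e-05). Its sum was 8.03 and 12.0 CPM in KO, 8.90 in DATG, and 17.1 and 15.0 in WT on day 5. RBP4, the plasma retinol carrier, was lower in KO (-0.65 ± 0.11, 2.2e-05), and SERPINA1, the antitrypsin gene, in DATG (-0.42 ± 0.08, 0.00023). The 2 higher in each line were the fibrinogen chain gene FGA and TTR, whose counts are given at the end. FGA was higher by 0.59 ± 0.22 in KO (adjusted p 0.032) and by 0.76 ± 0.24 in DATG (0.014). Under BMP4 GC was higher in KO than in WT (0.34 ± 0.06, 3.7e-05) and than in DATG (0.25 ± 0.07, 0.015), and SERPINA1 was higher in KO (0.30 ± 0.06, 0.00017) and DATG (0.25 ± 0.06, 0.0058) than in WT.

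Of 16 definitive endoderm regulators under SMADi, 7 were higher and 1 lower in KO, and 5 higher and 1 lower in DATG, with medians of 0.13 and 0.07. The 8 called in KO and the 6 in DATG are shares close to the 45.0% and 34.1% of all genes. CXCR4, a chemokine receptor used to sort definitive endoderm, was higher in KO (0.45 ± 0.06, adjusted p 4.2e-07) and DATG (0.42 ± 0.07, 8.2e-06). CER1, a secreted antagonist of Nodal, BMP and WNT, was lower in KO (-0.83 ± 0.12, 2.6e-06) and DATG (-0.57 ± 0.13, 0.00087). Of 10 hepatic transcription factors 2 were higher and 2 lower in KO, and 1 higher in DATG. CEBPA, a factor of hepatocyte and fat cell differentiation, was higher in KO (0.53 ± 0.06, 4.0e-08) and DATG (0.53 ± 0.07, 1.9e-07), with 65.2 and 69.0 CPM in KO, 69.8 in DATG, and 39.7 and 45.5 in WT on day 5. Of 10 extraembryonic endoderm genes 5 were higher and 1 lower in KO, and 3 higher in DATG, beside the same shares of all genes.

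Under BMP4 5 of the 16 definitive endoderm regulators were higher and 3 lower on day 5 than on day 1 in WT, while 47.6% of all genes were called. KLF5 (0.51 ± 0.08, adjusted p 2.7e-07) and GATA6 (0.46 ± 0.08, 3.1e-06) led those higher. Of 10 secreted proteins 1 was higher, the fibrinogen chain gene FGA (1.71 ± 0.31, 7.6e-06), and 4 were lower. Of 10 hepatic transcription factors 2 were higher and 4 lower, and of 10 extraembryonic endoderm genes 7 were higher and 1 lower, among them DAB2, an endocytic adaptor of visceral endoderm (0.76 ± 0.10, 4.1e-09). In KO, with 26.5% of all genes called, 3 of 16 regulators were higher and 4 lower, 3 of 10 secreted proteins were higher and 1 lower, 5 of 10 hepatic factors were higher and 2 lower, and 1 of 10 extraembryonic genes was higher and 6 lower. GATA6 (-0.25 ± 0.04, 4.3e-07) and DAB2 (-0.33 ± 0.05, 1.5e-07) were lower in KO. In DATG, with 13.0% of all genes called, the counts were 1 higher and 2 lower, 1 and 1, 1 and 1, and 0 and 5 in the same order. At day 0 none of the 63 listed genes with a region was called in either line by edgeR or DESeq2, with 4 in KO and 6 in DATG at an unadjusted p under 0.05.

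Marker genes of other fates were summed by list without a test, each list having regions at 5 of 5 genes in every group. On day 5 of SMADi the summed neuroectoderm markers were 411.7 to 441.5 CPM in KO, 428.8 in DATG, and 322.7 to 352.5 in WT, which was itself at 365.5 to 376.1 on day 1. The other lists overlapped between KO and WT on that day, with stem cell markers at 291.9 to 313.6 CPM in KO, 328.3 in DATG, and 306.6 to 317.4 in WT, mesoderm markers at 174.1 to 177.3 in KO, 176.8 in DATG, and 158.3 to 181.7 in WT, and amnion and trophoblast markers at 185.2 to 189.8 in KO, 207.6 in DATG, and 162 to 202.8 in WT. On day 5 of BMP4 the summed mesoderm markers were 289.5 to 305 CPM in KO, 304.2 to 339.2 in DATG, and 376 to 414.1 in WT, and the stem cell markers 345.4 to 345.7 in KO, 308.1 to 350.3 in DATG, and 266.9 to 274.8 in WT. Neuroectoderm markers were then 420.7 to 460.3 CPM in KO, 380.9 to 383.4 in DATG, and 313.9 to 328.2 in WT, and amnion and trophoblast markers 287.4 to 300.7 in KO, 267.3 to 304.2 in DATG, and 277.1 to 286 in WT. The part of these differences in the values at AFP, FOXA1 and HHEX was not tested.

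Over the 30 BMP4 libraries, the protein-coding genes whose log2(CPM + 1) followed AFP most closely among 11000 searched were TANC1 (Pearson r 0.93) and ZNF608 (0.90). For SOX17 they were RTN1 and RANBP17 (0.86 each), for FOXA1 STX16 and INSM1 (0.83 each), for FOXA2 FOXP2 (0.87) and HTR7 (0.86), and for FOXA3 SPRYD4 (0.81) and NDUFA3 (0.79). For APOA1 they were PTPN20 (0.84) and ORAI3 (0.83), and for HHEX HMX2 (0.84). These are descriptions over libraries that share days and genotypes.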

How the data were processed

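ATAC-seq (transposase accessibility) of 51 libraries was read from 3 deposited tables of counts per 201 bp region on GRCh38, 1 each for day 0, BMP4 and SMADi. The authors called regions with MACS2, per the submitters' processing notes. The sources used here do not give the aligner, counter, duplicate handling or cut-site shift, and duplicates or an unshifted cut site would change the counts. Regions were linked to the nearest RefSeq gene end within 50 kb, counts were summed per gene, and CPM was taken against each library's total. edgeR 4.0.16 in R 4.3.3 (TMM scaling, filterByExpr, quasi-likelihood F test, 1 mean per genotype and day, Benjamini-Hochberg adjusted over all genes or regions) gave 14 comparisons, each two-sided, at an adjusted p of 0.05, and was tested on simulated data. SE is the log2 fold change over the square root of F.

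Groups had 1 or 2 libraries. Replicate libraries of a group differed by more than counting noise (chi-square per degree of freedom 1.03 to 3.10), and none was merged. The highest value, 3.10, was that of WT on day 5 of SMADi, whose replicate a had the lowest total of that condition (7086918). That pair is the WT side of every day 5 value under SMADi. Alternatives were DESeq2 1.42.0, 2 other scalings, no filter, a replicate term, links within 1 kb or to coding genes only, and leaving out each library. The 8 genes, the lists and the tests were chosen with earlier results of these data known. Every listed gene with a region was named. Of regions, the strongest per gene and the called region with the smallest adjusted p per comparison were eligible, and of list genes the 2 with the smallest adjusted p per direction. Other named regions were chosen after their values were seen. Days 2 and 3 of SMADi were not analysed here. No region sequence is printed. One gene that the naming rule picked is not reported here.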

Additional observations from a re-analysis of the deposited data

Results flagged for a closer look

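In 6 cases the change from day 1 to day 5 differed between a mutant line and WT by the test of that difference itself (edgeR's quasi-likelihood test). Under SMADi AFP differed by -1.29 in KO (adjusted p 6.4e-05) and -1.20 in DATG (0.0019), with 6.02 and 5.54 CPM in KO, 6.06 CPM in DATG, and 17.8 and 17.4 CPM in WT on day 5. Under SMADi FOXA1 differed by 0.69 in KO (0.00010) and 0.87 in DATG (0.00019), with 133 and 118 CPM in KO, 121 CPM in DATG, and 77.3 and 89.3 CPM in WT on day 5. Both DATG differences rest on 1 library per day, assumed to vary like the other groups. Under BMP4 FOXA1 differed by 0.40 in KO (0.015) and FOXA2 by 0.43 in KO (0.049), calls that ended when single libraries were left out.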

How the results depend on the processing

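Of 155 alternative values of gene results called as reported, other than those with a library left out, 136 kept their direction and call, 18 lost the call and 1 reversed. Of 497 values with a library left out, 450 kept the call and 47 lost it. A further 59 gene results were never called, and 32 of them took the other sign under an alternative. The cause of each change below was not tested. Links within 1 kb keep fewer of these genes' regions.

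With links within 1 kb, FOXA1 reversed to -0.036 in KO and -0.24 between days in WT under SMADi, HHEX to 0.033 between days in WT under SMADi, FOXA2 to -0.0028 in KO under BMP4 and to -0.28 for the DATG change over days under SMADi. With coding links FOXA2 reversed to 0.032 in KO and 0.050 for the KO change over days under SMADi, and with a library left out these ran from -0.17 to 0.018 and from -0.35 to 0.15.

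The percentage of all genes called moved as follows. At day 0, KO had 0.047 in DESeq2 and 0.119 with the replicate block, and 0.065 to 0.39 with a library left out. DATG had 0.0253 in DESeq2, 0.206 with the block, 0.128 with 1 kb and 0.179 with coding links, and 0.065 to 0.448 with a library left out. Under BMP4, 1 kb links gave 12.9 for KO, 4.85 for DATG, 1.08 for KO against DATG, and 1.3 and 0.0932 for the KO and DATG changes over days. DESeq2 gave 6.16 for DATG, 1.24 for KO against DATG, and 1.76 and 0.0264 for these changes, which ran from 2.08 to 7.41 and from 0.00331 to 0.83 with a library left out. Under SMADi, 1 kb links gave 24.2 for KO, 16.4 for DATG, 29 between days in WT, and 9.79 and 8.56 for the KO and DATG changes over days. DESeq2 gave 12.9 for the DATG change, which ran from 12.9 to 30.8 with a library left out, and KO against DATG from 0.073 to 0.194.

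Of all regions, at day 0 DESeq2 called 0.0189% in KO and 0.0129% in DATG, the block 0.122% in DATG, and leaving out a library gave 0.0408 to 0.182% and 0.0308 to 0.276%. DESeq2 called 13.1% in KO, 3.18% in DATG and 20.5% between days in WT under BMP4, the last at 21.9 to 36.3% with a library left out. For the KO and DATG changes over days under SMADi it called 11% and 5.16%, and leaving out a library gave 12 to 22.1% and 8.08 to 22%.

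Deviations of same-lettered libraries correlated above 0.1 in 0 of 3, 23 of 105 and 2 of 15 pairs of groups at day 0, under BMP4 and under SMADi. The median r was -0.11, 0.04 and -0.03 and the highest 0.03, 0.22 and 0.30. The letters thus showed no general pairing of the samples, and whether some groups shared a batch was not tested. With the replicate block AFP was at 1.13 between days and -0.26 in KO under BMP4 and at -0.92 in KO and -0.89 in DATG under SMADi. It added a call for FOXA1 between days of BMP4 in WT (-0.18, adjusted p 0.047) and removed those of the regions of SOX17 at 54459113 (0.067), of FOXA3 at 45876815 (0.052), and of FOXA3 at 45864113 in DATG (0.057) and for the KO change (0.059). Neither other scaling reversed a called gene. Total-count scaling put the median of all regions at -0.17 in place of -0.03 between days in WT under BMP4, at -0.10 in place of 0.00 under SMADi, and at -0.20 in place of -0.05 for the KO change under SMADi. With it the higher share of called regions was 41.2% in place of 58.0% in the first of these, 20.8% in place of 36.3% in the last, and 53.7% and 50% in place of 36.6% and 30.6% for the KO and DATG changes over days under BMP4, and that of called genes 30.1% in place of 42.5% for the KO change under SMADi and 47.9% in place of 35.4% for the DATG change under BMP4. Comparisons that lost their only library of a group (DATG day 1 or 5, or KO day 4, under SMADi) were not run.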

Other observations

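TTR, the gene of transthyretin, a thyroid hormone carrier made by liver, yolk sac and choroid plexus, had almost no counts in WT under SMADi, with 1 and 3 on day 1, 2 and 1 on day 4, and 2 and 2 on day 5. KO had 2 and 3 counts on day 1, 14 on day 4, and 56 and 69 on day 5 (3.62 and 3.94 CPM). DATG had 2 counts on day 1, 8 and 8 on day 4, and 76 on day 5 (3.27 CPM). It was called higher in KO (adjusted p 0.00013) and DATG (0.012) by edgeR, and no fold is given against so few counts. AFP and TTR, both made by yolk sac and fetal liver, thus differed from WT in opposite directions on day 5. No explanation was tested.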
